A study of Mus musculus with 33 samples.

Results

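The genes described here encode 8 transcription factors that mark regions of the gut: Cdx1, Cdx2, Pdx1, Sox2, Gata4, Gata6, Pax2 and Tbx3. They were chosen by name and not by a measured value, as the rows whose mouse Ensembl identifier carries one of these symbols, and each symbol matched 1 of the 32285 identifiers counted. Their RNA was measured by 3′ mRNA sequencing (QuantSeq, which reads a tag near the end of each polyadenylated transcript) in 33 libraries of 8 mouse colon organoid lines. All 8 genes passed the filter of at least 1 CPM (a gene's counts relative to the total of its library) in at least 3 libraries, which left 13606 genes for testing.

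The cells carried the conditional alleles of the AKP model, among them Apc fl/fl and Trp53 fl/fl, both of which are lost once Cre recombinase acts. The control line (6 libraries) was the non-induced AKP line, which carries the same alleles without recombination. Organoid AKP (6 libraries) and mini-colon AKP #i to #v (3 libraries each) were recombined by OptoCre, a Cre that needs both doxycycline and blue light. Organoid AKP cells were switched and kept as conventional organoids, whereas the mini-colon AKP lines were isolated from tumours that arose in mini-colons, tube-shaped colon tissues grown on a chip. Line #i came from mini-colons enriched in tumours of the lumen and line #v from mini-colons enriched in tumours of the crypts. In vivo AKP (6 libraries) was established from colon tumours of tamoxifen-treated AKP mice in which the Cdx2 promoter drove a creERT2, so that recombination took place in cells that used the promoter of one of the genes described here. All lines were grown as organoids and, by the study's methods, starved in basal medium free of growth factors just before lysis. The medium used to expand mutant organoids beforehand lacked growth factors given to the control, so that mutation and expansion medium cannot be told apart. The study calls its replicates separate cultures from independent sets of samples, while the labels tie no library to a named culture or mouse. P-values therefore measure the spread between libraries of 1 line, not between lines or mice.

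Libraries held 2438672 to 8256526 counts (median 3748649). All 6 epithelial markers examined (Epcam, Cdh1, Krt8, Krt18, Krt19 and Vil1) were counted in every line, with summed levels of 8931.6 to 10286.2 CPM in control and 2822.9 to 3459.4 CPM in the mutant lines. Deposited names carry a letter, E or F, whose meaning is not given in the sources used here. Replicates 1 to 3 of control, organoid AKP and in vivo AKP carry E and replicates 4 to 6 carry F, whereas #i, #ii and #iii are all E and #iv and #v all F. A difference between the former 3 and the latter pair of mini-colon lines therefore cannot be told apart from a difference between letters. Trp53 tags stood at 17.1 ± 1.64 CPM in control, 1.77 ± 1.004 in organoid AKP, on average 2.22 to 9.86 in the mini-colon AKP lines, the highest being #iii, and 25.5 ± 5.52 in in vivo AKP (SD, n = 6). A 3′ tag can lie outside the deleted part of a gene, so these levels do not check the genotype.

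The homeobox factors CDX1 and CDX2 set and maintain intestinal fate in the hindgut, and loss of CDX2 lets intestinal epithelium take on stomach-like features. PDX1, another homeobox factor, acts in the pancreas, the distal stomach and the proximal duodenum, and SOX2 is the factor of oesophagus and stomach that is normally silent in the intestine. The zinc finger factor GATA4 marks the proximal small intestine and is normally off in ileum and colon, whereas GATA6 is made along the whole intestine. PAX2 is best known from the kidney and the urogenital tract, and TBX3 is a T-box repressor of limb, mammary gland and foregut derivatives. In bulk RNA of this kind, fewer cells that express a gene and less RNA per cell cannot be told apart.

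Pdx1 and Cdx2 lie next to each other on chromosome 5 (GRCm39), Pdx1 at chr5:147206769-147212658 on the plus strand and Cdx2 at chr5:147237615-147244091 on the minus strand, with 24957 bases between them. Tbx3 lies elsewhere on the same chromosome, at chr5:119806298-119822797. Sox2 is at chr3:34704554-34706610, Gata4 at chr14:63436362-63509141 on the minus strand and Pax2 at chr19:44735057-44826703. RefSeq promoter windows of 250 bases before a start site (table built on GRCm38.p6) were at hand for 4 of the 8 genes, Cdx2, Pdx1, Sox2 and Pax2. The stretches before the RefSeq starts of Cdx2, Pdx1 and Sox2 are shown because 2 of these genes are neighbours and their highest lines differed. Cdx2 was highest in control, and Pdx1 and Sox2 were highest in in vivo AKP. Bases annotated as exon are left out, and capitals mark a CCAAT box in either orientation. The Sox2 stretch ends at 34704143, upstream of and not adjoining the gene start given above, 34704554.
Cdx2 (chr5:147244092-147244309, GRCm39, minus strand): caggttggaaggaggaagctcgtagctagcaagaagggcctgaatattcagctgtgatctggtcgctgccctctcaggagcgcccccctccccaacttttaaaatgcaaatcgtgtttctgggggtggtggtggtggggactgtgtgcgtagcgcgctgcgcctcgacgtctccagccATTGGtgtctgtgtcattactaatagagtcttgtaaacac
Pdx1 (chr5:147206657-147206768, GRCm39, plus strand): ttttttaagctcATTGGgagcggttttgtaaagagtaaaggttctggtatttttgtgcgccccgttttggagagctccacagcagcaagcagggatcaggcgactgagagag
Sox2 (chr3:34703894-34704143, GRCm39, plus strand): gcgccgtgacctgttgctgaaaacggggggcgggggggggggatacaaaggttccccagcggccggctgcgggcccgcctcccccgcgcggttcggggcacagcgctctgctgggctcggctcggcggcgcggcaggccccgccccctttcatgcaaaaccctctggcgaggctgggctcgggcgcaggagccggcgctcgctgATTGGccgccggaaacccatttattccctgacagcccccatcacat
Each of the 3 stretches holds 1 CCAAT box, a motif looked for after the sequences were read, which 33.8% of 32851 promoter windows hold. The full Pdx1 window holds 2, and the 3 windows of Pax2 hold 0. Motifs of CDX and GATA factors and of TCF/LEF, which carry WNT signals to genes, were searched on both strands in the 6 windows of the 4 genes. TTTATNG, for CDX factors, had 0 matches, beside 9.81% of all windows. The GATA letters AGATAA had 0 matches, beside 9.99%. For TCF/LEF the letters CTTTGNT had 0 matches, beside 16% of all windows. These letters are thus not in these windows, and nothing about binding elsewhere follows from that.

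The levels fell into distinct patterns over the 8 lines. Cdx1 and Cdx2 were highest in control, Pdx1, Sox2 and Gata4 were highest in in vivo AKP and near 0 elsewhere, Gata6 and Tbx3 were detected in every library, and Pax2 was highest in mini-colon AKP #iv. Levels are CPM scaled by the trimmed mean of M values (TMM), and a member was called where edgeR's quasi-likelihood test gave a Benjamini-Hochberg adjusted p under 0.05 over the 13606 genes.

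Cdx2, the leading intestinal homeobox gene, was highest in control. Its level there ran from 433 to 629 CPM with a median of 524 (526 ± 65.6, SD, n = 6). In organoid AKP it ran from 70.4 to 106 CPM with a median of 96.5 (92.8 ± 12.1, SD, n = 6). The 6 libraries of each line did not overlap. It was 76.6, 83.5 and 69.5 CPM in #i, 77.9, 65.2 and 91.8 CPM in #ii, and 58.9, 59.2 and 58.2 CPM in #iii. It was 94.7, 98.7 and 93.8 CPM in #iv and 123, 163 and 132 CPM in #v, so that all 3 #v libraries lay above every library of the other mini-colon lines and of organoid AKP. In in vivo AKP the 6 values ran from 50.0 to 165 CPM with a median of 102.

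Cdx1 (chr18:61151934-61169314, minus strand), the other caudal-type factor of the intestine, was counted at a few CPM in control and less elsewhere. Control libraries held 4.90 to 12.5 CPM, with a median of 7.20 and 231 counts over the line. The 6 organoid AKP libraries held 2 counts together, and #i, #iii and in vivo AKP held 0 counts, which allows up to 0.307, 0.251 and 0.1003 CPM over the line at the level of 3 counts. In #ii all 6 counts came from replicate 2 (1.58 CPM, with 0 in the other two), and #iv held 0.281, 0.310 and 0 CPM. Line #v was the mutant line with the most Cdx1, at 2.01, 0.775 and 2.86 CPM (36 counts). Every mutant library stayed below the lowest control library.

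**Figure D1:**
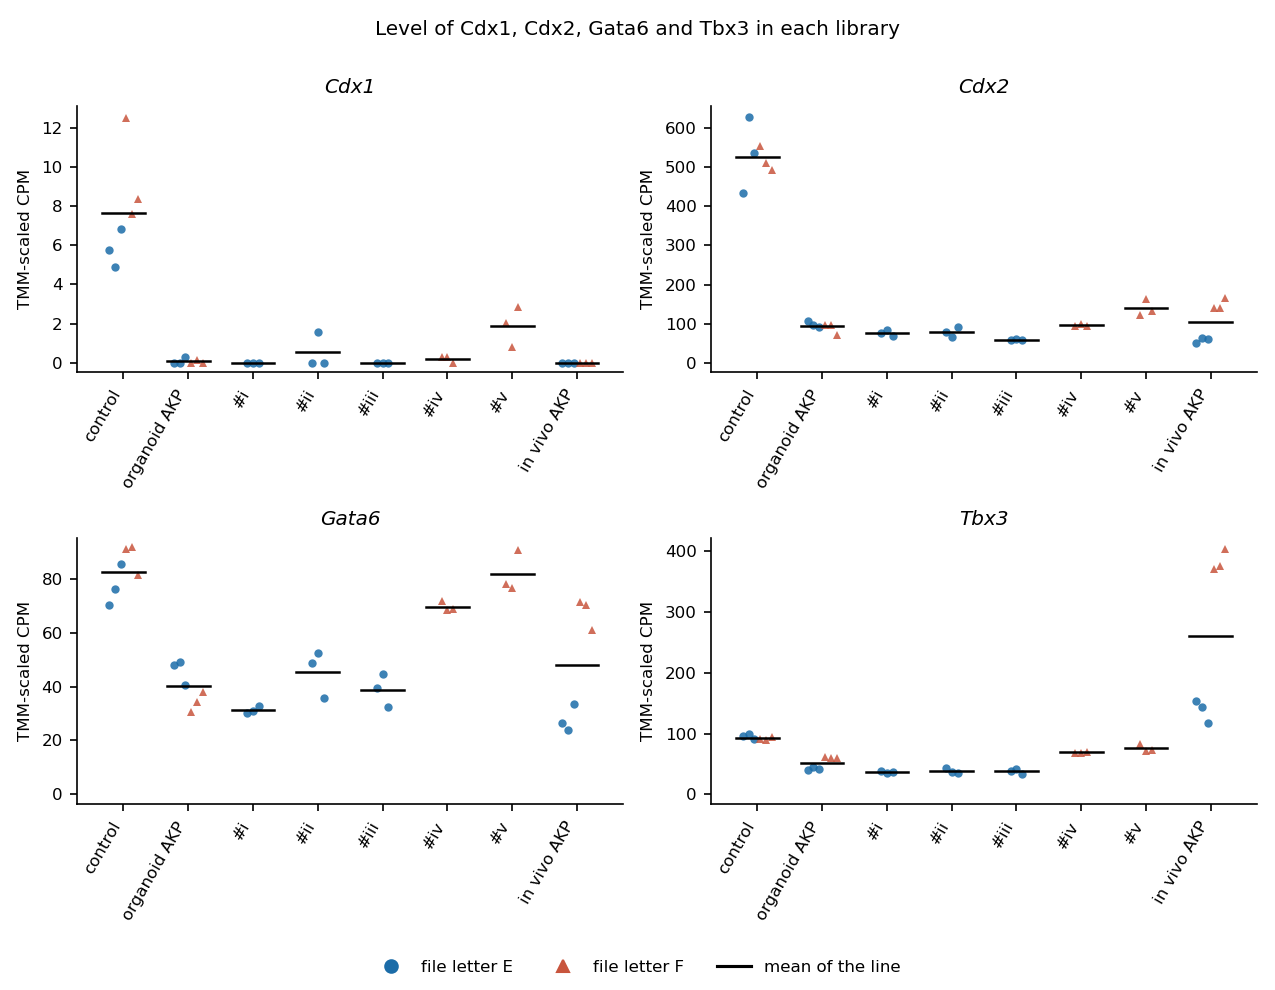
Levels of Cdx1, Cdx2, Gata6 and Tbx3 in TMM-scaled CPM in every library of the 8 lines, 1 point per library, with a bar at the mean of the line. Control stands apart for Cdx2 (433 to 629 CPM) and Cdx1, whereas for Tbx3 the in vivo AKP libraries are highest (118 to 404 CPM) and fall into a lower and a higher group of 3.

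Gata6 (chr18:11051565-11086995), which is expressed along the whole intestine, ran from 70.2 to 91.9 CPM in control (median 83.4) and from 30.4 to 49.1 CPM in organoid AKP (median 39.2), with no overlap. It was 30.1, 31.0 and 32.7 CPM in #i, 48.6, 52.3 and 35.6 CPM in #ii and 39.5, 44.6 and 32.3 CPM in #iii. It was 71.7, 68.3 and 68.7 CPM in #iv and 78.2, 76.7 and 90.5 CPM in #v, within or just below the control range. In vivo AKP spanned 24.0 to 71.5 CPM, with a median of 47.3.

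Tbx3 ran from 89.7 to 98.7 CPM in control (median 92.5) and from 40.9 to 60.9 CPM in organoid AKP (median 52.0), again with no overlap. Its levels were 38.0, 35.0 and 36.8 CPM in #i, 44.3, 37.6 and 34.8 CPM in #ii and 38.96, 42.6 and 33.7 CPM in #iii. They were 68.3, 68.9 and 69.8 CPM in #iv and 83.6, 70.9 and 72.5 CPM in #v. Each in vivo AKP library, at 118 to 404 CPM with a median of 262, lay above every other library of the series.

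Pdx1, a pancreas and duodenum factor, was near the counting floor in all lines but one. It reached at most 0.384 CPM in control and 0.681 CPM in organoid AKP. The highest mini-colon value was 1.24 CPM, in #iv, whose other libraries held 0.843 and 0.784 CPM. In vivo AKP held 7.83 to 15.2 CPM (median 11.8, 338 counts over the line), and its lowest library lay above the highest of every other line.

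Gata4, the proximal small intestine factor, had 5 counts over the 6 control libraries and 1 over the 6 organoid AKP libraries. In vivo AKP held 553 counts, at 15.2 to 21.9 CPM with a median of 18.2. The mini-colon lines held 5, 2 and 0 counts in the libraries of #i, 1, 3 and 1 in #ii and 0, 5 and 1 in #iii. Line #iv held 0 counts and line #v 1.

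Sox2, the stomach and oesophagus factor, had 0 counts in every library of control, organoid AKP and #i to #iv. Line #v held 2, 0 and 1 counts and in vivo AKP 6, 6, 8, 16, 7 and 14 counts, or 1.07 to 3.06 CPM with a median of 1.95. All 6 in vivo AKP libraries thus had Sox2 tags.

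Pax2, the kidney and urogenital factor, was the member whose highest line was grown from a mini-colon. It was 36.8, 36.9 and 25.6 CPM in #iv (33.1 ± 6.51, SD, n = 3), 8.59, 10.1 and 11.7 CPM in #v and 2.49 to 9.73 CPM in in vivo AKP (median 5.80). In #iii it was 1.93, 1.10 and 2.81 CPM, in #i 0.293, 1.46 and 1.70 CPM and in #ii 0.862, 0 and 0.164 CPM. Control held 0 counts and organoid AKP 1. Lines #i to #iii, which carry the letter E, had less Pax2 than lines #iv and #v, which carry F.

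**Figure D2:**
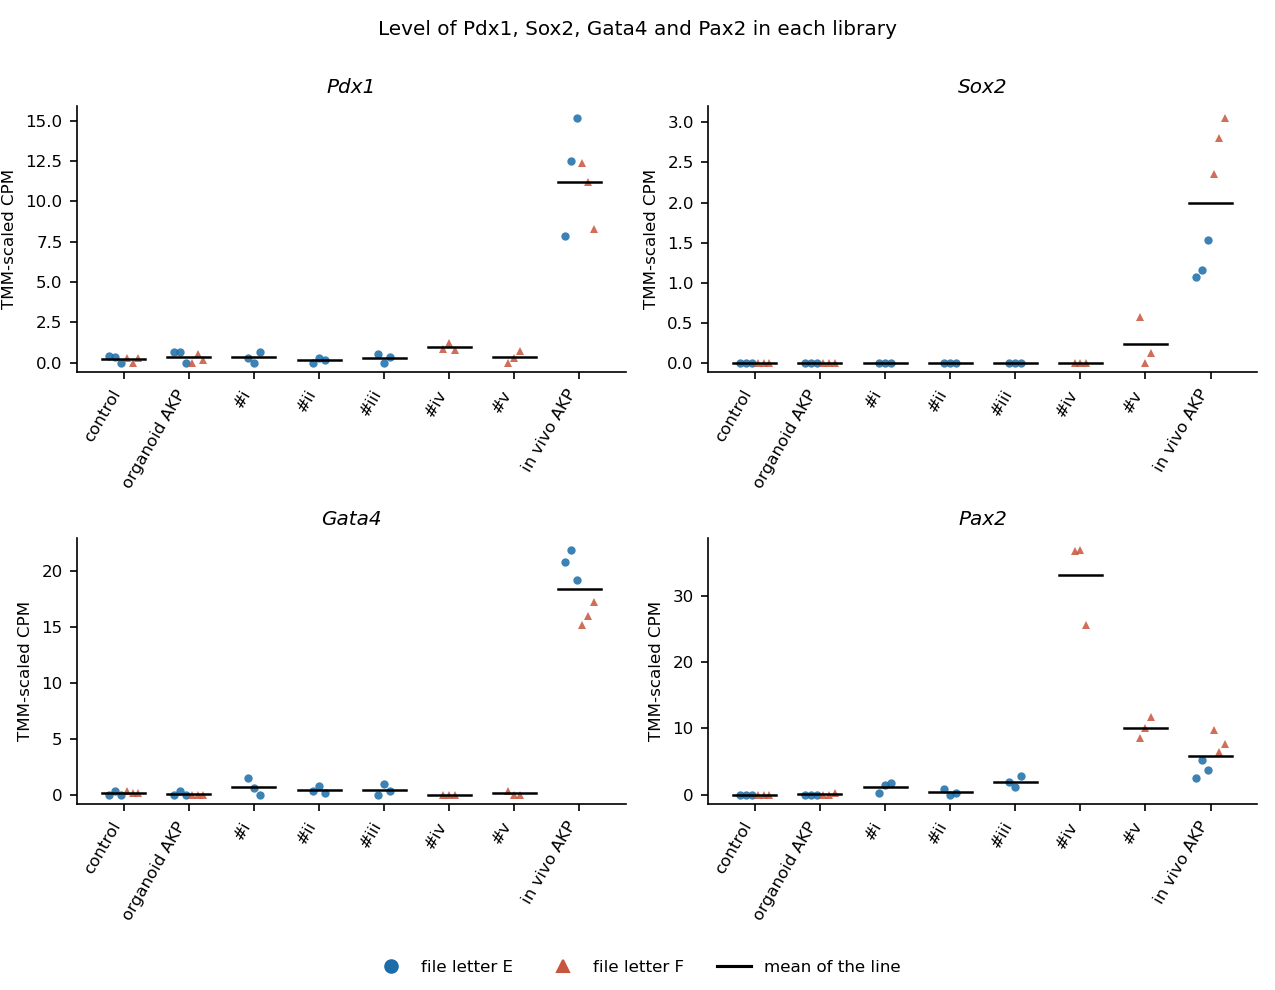
Levels of Pdx1, Sox2, Gata4 and Pax2 in TMM-scaled CPM in every library of the 8 lines, 1 point per library, with a bar at the mean of the line. Pdx1, Sox2 and Gata4 are highest in the 6 in vivo AKP libraries, at up to 15.2, 3.06 and 21.9 CPM, and Pax2 is highest in mini-colon AKP #iv at 25.6 to 36.9 CPM.

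The comparison of organoid AKP with control asked what the AKP mutations, together with the change of medium, did to these factors outside a tumour. Among the 8, 4 fell, 0 rose and 4 did not pass the test, beside 71.0% of all 13606 genes called in this comparison, 33.6% lower and 37.3% higher. With so many genes called, the share of members called is not in itself a result about them, and the sizes are the description. Cdx2 fell by 2.51 on the log2 scale (SE 0.21, edgeR adjusted p = 3.94e-12), or 5.68-fold. Cdx1 was 119-fold lower by the ratio of its counts, with a 95% exact interval of 32.6 to 988 that covers counting error only, since organoid AKP held 2 counts (edgeR adjusted p = 4.03e-09). Gata6 was 2.09-fold lower (log2 change −1.06, SE 0.19, edgeR adjusted p = 1.45e-05), and Tbx3 was 1.80-fold lower (log2 change −0.85, SE 0.22, edgeR adjusted p = 0.00109). Pdx1 differed by 0.50 on the log2 scale (edgeR adjusted p = 0.566) and Gata4 by −1.72 (edgeR adjusted p = 0.132), both on a few counts, and Sox2 had none in either line. Gata4 passed the test without organoid AKP replicate 2, the library with its 1 count (edgeR adjusted p = 0.0294).

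The comparison of in vivo AKP with organoid AKP asked how tumour-derived cells differed from cells given the same mutations in culture. Here 5 members rose, 0 fell and 3 did not pass the test, beside 34.4% of all genes called, 17.4% higher. These 5 were Pdx1, Sox2, Gata4, Pax2 and Tbx3. Pdx1, Sox2 and Gata4, the 3 factors of stomach, pancreas and proximal small intestine, passed the filter on low values only through the in vivo AKP libraries, so they had to differ here and the count of 5 supports nothing about the members as a group. Pdx1 was 32.5-fold higher (log2 change 5.02, SE 0.43, edgeR adjusted p = 1.25e-11). Gata4 was 523-fold higher by the ratio of its counts, with a 95% exact counting interval of 93.5 to 20699.6 that comes from the 1 count in organoid AKP (edgeR adjusted p = 9.56e-15). Pax2 was 167-fold higher, likewise against 1 count, with an interval of 29.7 to 6650.5 (edgeR adjusted p = 7.7e-10). Sox2 was at least 17.97-fold higher, taking 3 counts over the 6 organoid AKP libraries as the floor (edgeR adjusted p = 4.82e-05), but DESeq2 gave an adjusted p of 0.0616. Tbx3 rose by 2.33 on the log2 scale (SE 0.22, edgeR adjusted p = 9.46e-10). Cdx2 and Gata6 changed by 0.15 (SE 0.20, edgeR adjusted p = 0.606) and 0.26 (SE 0.20, edgeR adjusted p = 0.339), and Cdx1 had 0 counts against 2.

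Set against control, in vivo AKP had a mixed pattern of the intestinal and foregut factors, in a comparison in which 72.2% of genes were called. Cdx2 fell by 2.36 on the log2 scale (edgeR adjusted p = 1.31e-11) and Gata6 by 0.81 (edgeR adjusted p = 0.00041), while control exceeded in vivo AKP at least 83.8-fold for Cdx1. Tbx3 was 2.79-fold higher in in vivo AKP than in control (log2 change 1.48, edgeR adjusted p = 4.62e-07) and Pdx1 rose by 5.52 on the log2 scale. Sox2 was at least 17.5-fold and Pax2 at least 54.2-fold higher, against 0 counts in control. Pdx1 and Sox2 had to be higher here, since they passed the filter only through in vivo AKP. The comparisons of in vivo AKP with each of the other lines share its 6 libraries, so they are not separate lines of evidence.

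The 6 in vivo AKP libraries were not of 1 kind. The 3 libraries of letter E and the 3 of letter F did not overlap for Cdx2, at 57.9 ± 7.10 against 149 ± 14.4 CPM (SD, n = 3 each). They stood at 27.98 ± 4.86 against 67.7 ± 5.72 CPM for Gata6, at 139 ± 18.3 against 383 ± 17.9 CPM for Tbx3, and at 3.78 ± 1.35 against 7.92 ± 1.68 CPM for Pax2. In a fit of the 18 libraries of control, organoid AKP and in vivo AKP (13310 genes), letter F exceeded E within in vivo AKP by 1.34 on the log2 scale for Cdx2 (edgeR adjusted p = 1.52e-08) and by 1.24 for Gata6 (edgeR adjusted p = 4.67e-11). It did so by 1.44 for Tbx3 (edgeR adjusted p = 8.46e-17) and by 1.09 for Pax2 (edgeR adjusted p = 0.00641), beside 47.8% of genes called between the letters in this line, 24.7% higher in F. Gata4 went the other way in level, at 20.6 ± 1.37 CPM in E and 16.1 ± 1.03 CPM in F.

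**Figure D3:**
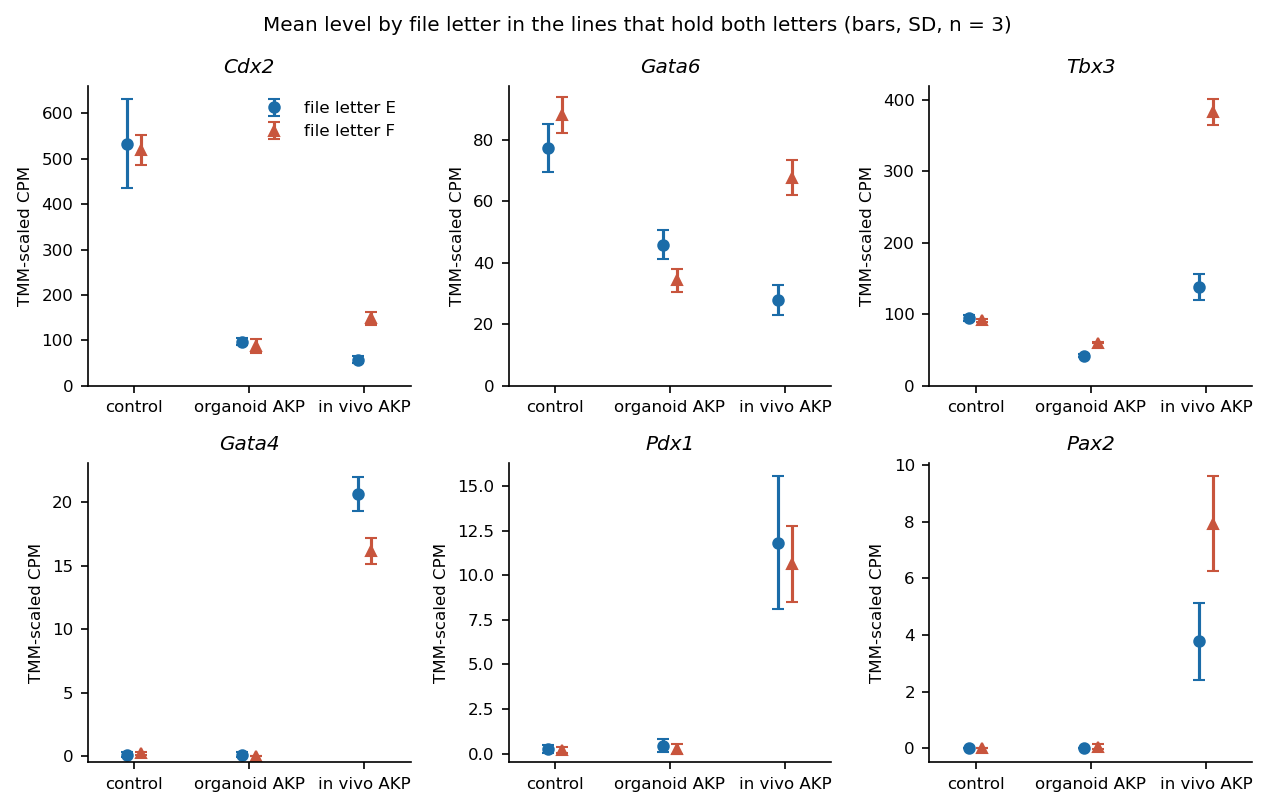
Mean levels of Cdx2, Gata6, Tbx3, Gata4, Pdx1 and Pax2 in TMM-scaled CPM for the libraries of letter E and letter F in control, organoid AKP and in vivo AKP, with error bars of 1 SD over 3 libraries. In in vivo AKP, Cdx2, Gata6 and Tbx3 are higher in letter F (149, 67.7 and 383 CPM) than in letter E (57.9, 27.98 and 139 CPM), whereas in control the means of Cdx2 lie at 533 CPM in E and 519.5 CPM in F.

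Within 1 letter, Cdx2 and Gata6 did change between organoid AKP and in vivo AKP, in opposite directions. With the E libraries alone, Cdx2 fell by 0.74 (edgeR adjusted p = 2.16e-05) and Gata6 by 0.69 on the log2 scale (edgeR adjusted p = 0.000342). With the F libraries alone, Cdx2 rose by 0.78 (edgeR adjusted p = 5.21e-06) and Gata6 by 1.0 (edgeR adjusted p = 6.17e-11). Tbx3 was higher in in vivo AKP in both, by 1.72 in E and 2.69 in F. The difference between the letters was itself past the threshold for all 3 genes, at 1.47 for Cdx2 (SE 0.19, edgeR adjusted p = 4.22e-06), 1.65 for Gata6 (SE 0.18, edgeR adjusted p = 3.66e-09) and 0.92 for Tbx3 (SE 0.14, edgeR adjusted p = 2.43e-06), beside 20.9% of all genes called, 9.23% with the larger change in F. The small pooled changes of Cdx2 and Gata6 are therefore means over unlike libraries.

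The letters were also compared in the other lines that hold both. In control 0 of the 8 members were called between letters by edgeR, beside 22.0% of genes, and Cdx2 stood at 533 CPM in E and 519.5 CPM in F. Cdx1 alone had an unadjusted edgeR p under 0.05 there (0.0295). In organoid AKP, Tbx3 was higher in F (42.4 ± 2.15 against 60.2 ± 0.876 CPM, SD, n = 3 each; log2 difference 0.52, edgeR adjusted p = 0.000217) and Gata6 was lower in F (45.9 ± 4.70 against 34.3 ± 3.77 CPM, log2 difference −0.40, edgeR adjusted p = 0.0139), beside 30.2% of genes. The change from control to organoid AKP differed by letter for Tbx3 by 0.59 (edgeR adjusted p = 0.00383) and for Gata6 by −0.57 (edgeR adjusted p = 0.0201), beside 13.2% of genes.

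Markers of other cell types were low in most lines, except for those of fibroblasts and smooth muscle in in vivo AKP and #v. Of 8 fibroblast and smooth muscle markers, 5 had a count in in vivo AKP, and their summed level was 38.6 to 42.7 CPM in the E libraries and 203 to 276 CPM in the F libraries, against 4.43 to 22.7 CPM in organoid AKP. In #v it was 40.4 to 118 CPM, against 4.09 to 8.76 CPM in #i and 4.498 to 7.58 CPM in #iv, which shares the letter F with #v. Nearly all of it was Vim, a filament protein gene also active in some tumour cells, at 145 ± 117 CPM in in vivo AKP (SD, n = 6) and 66.6 ± 43.8 CPM in #v (SD, n = 3). Col3a1, Dcn and Lum had 0 counts in in vivo AKP, and Col1a2, Dcn and Lum in #v. Summed immune markers were 9.61 to 15.2 CPM in in vivo AKP and 5.18 to 12.4 CPM in organoid AKP. Summed markers of endothelium were 1.03 to 2.30 CPM in in vivo AKP, and those of enteric neurons and glia 1.96 to 6.14 CPM, with Sox10 at 0. The endothelium markers Tek, Cdh5 and Kdr held 20, 13 and 1 counts in in vivo AKP and 0 in organoid AKP. Pecam1 held 12 counts in in vivo AKP and 23 in organoid AKP. The part of these markers in the differences between letters and lines was not tested.

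The 5 mini-colon AKP lines were compared with organoid AKP to ask whether growth of tumours in a mini-colon left a trace in these factors. In #i (7.15% of genes called, 3.10% higher) and in #iii (16.2% called, 7.45% higher) Gata4 and Pax2 rose. In #ii (24.6% called) 0 members were called by edgeR. In #iv (4.90% called, 2.55% higher) Gata6 and Pax2 rose, and in #v (10.6% called, 5.11% higher) Cdx1, Gata6 and Pax2 rose. In #ii, 1 member (Gata4) had an unadjusted edgeR p under 0.05 (0.0173), and DESeq2 called 1 member and limma-voom 0. These 5 comparisons share the 6 organoid AKP libraries, and Pax2 and Gata4 in each rest on the same 1 count there. No member was called lower in any of the 5, but with the E libraries alone Gata6 fell by 0.55 in #i (edgeR adjusted p = 0.0196) and Cdx2 by 0.74 in #iii (edgeR adjusted p = 7.6e-05).

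**Figure D4:**
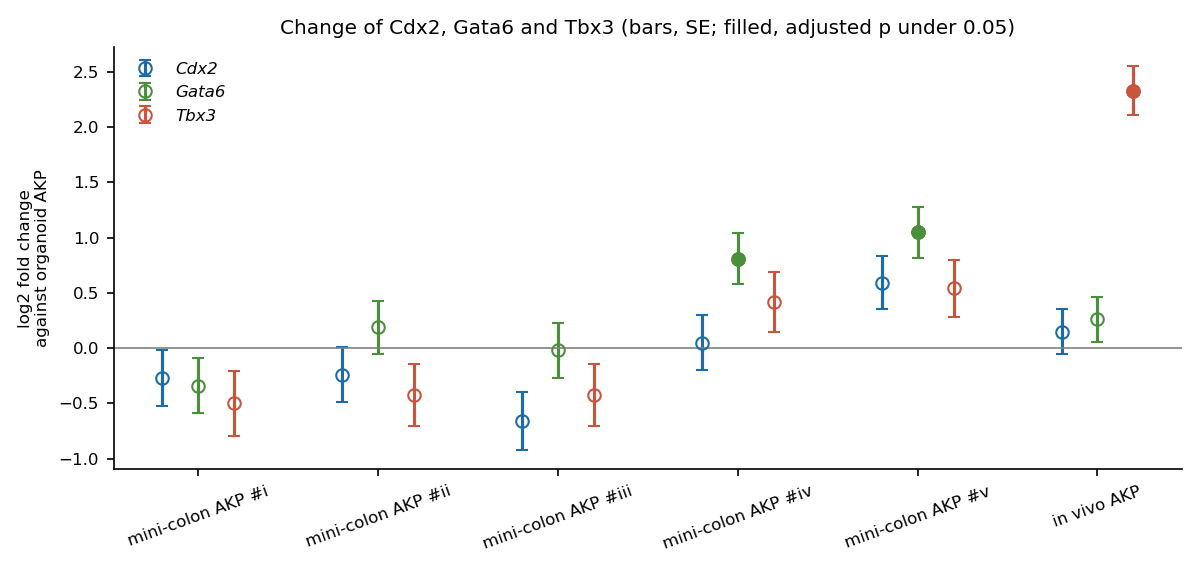
Log2 change of Cdx2, Gata6 and Tbx3 against organoid AKP in the 5 mini-colon AKP lines and in vivo AKP, from edgeR, with bars of 1 standard error and filled points for adjusted p under 0.05. Gata6 is called in #iv (0.81) and #v (1.05) and Tbx3 in in vivo AKP (2.33), while Cdx2 is not called in any of the 6 lines.

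Pax2 was the member with the widest spread among mini-colon lines. Line #iv held 348 counts against the 1 count of organoid AKP, a ratio of 928 with a 95% exact counting interval of 165 to 36753.3 (edgeR adjusted p = 2.3e-12). Line #v held 193 counts, a ratio of 298 with an interval of 52.8 to 11816.4 (edgeR adjusted p = 9.88e-10). The E lines were far lower, with 11 counts in #i (ratio 31.8, interval 4.62 to 1368.9, edgeR adjusted p = 0.0129) and 21 counts in #iii (ratio 49.8, interval 8.001 to 2057.3, edgeR adjusted p = 0.000321). The call in #i was lost without #i replicate 2 or 3 (edgeR adjusted p = 0.075 and 0.0807).

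Gata6 rose in both F lines, by 0.81 on the log2 scale in #iv (SE 0.23, edgeR adjusted p = 0.0378) and by 1.05 in #v (SE 0.23, edgeR adjusted p = 0.00219). Against the F libraries of organoid AKP alone it rose by 1.01 in #iv (edgeR adjusted p = 6.53e-10) and by 1.26 in #v. With the letter as a term the change in #iv was 0.64 and not called (edgeR adjusted p = 0.123), and with no filter it was not called either (edgeR adjusted p = 0.0716). The call in #iv was also lost without any 1 of organoid AKP replicates 3 to 6 or of the 3 #iv replicates, with edgeR adjusted p values of 0.0506 to 0.144. In the E lines the log2 changes of Gata6 were −0.34 in #i, 0.19 in #ii and −0.02 in #iii, and none passed the test.

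Cdx1 was called in #v alone, with 36 counts against 2 (ratio 27.8, 95% exact counting interval 7.15 to 238, edgeR adjusted p = 0.00123), a level still below that of control. Cdx2 and Tbx3 in #v differed from organoid AKP by 0.59 (SE 0.24, edgeR adjusted p = 0.114) and 0.54 (SE 0.26, edgeR adjusted p = 0.204). Against the F libraries of organoid AKP alone both passed, with Cdx2 at 0.67 (edgeR adjusted p = 8.05e-05) and Tbx3 at 0.32 (edgeR adjusted p = 0.00242). In #iii, Cdx2 was lower by −0.66 on the log2 scale (SE 0.26) and missed the threshold (edgeR adjusted p = 0.0783), although its 3 libraries lay below the 6 of organoid AKP. It passed without in vivo AKP replicate 1 or 6 (edgeR adjusted p = 0.0385 and 0.049), libraries that enter only through the shared estimate of the spread. With only the lines compared it passed as well (edgeR adjusted p = 0.00419).

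The Gata4 calls in the E lines rest on a handful of tags. Line #i held 7 counts against 1 (ratio 20.2, 95% exact counting interval 2.60 to 912, edgeR adjusted p = 0.0301) and #iii held 6 against 1 (ratio 14.2, interval 1.72 to 654, edgeR adjusted p = 0.042). The call in #i was lost without organoid AKP replicate 4, 5 or 6 or #i replicate 1 or 2 (edgeR adjusted p from 0.0622 to 0.288). The call in #iii was lost without organoid AKP replicate 1, 3, 4, 5 or 6 or #iii replicate 2 or 3 (edgeR adjusted p from 0.0523 to 0.528). In #ii, with 5 counts, Gata4 passed in edgeR only without organoid AKP replicate 2 (edgeR adjusted p = 0.025). With all libraries kept it passed in DESeq2 (DESeq2 adjusted p = 0.0453).

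Line #v, enriched in tumours of the crypts, was compared with #i, enriched in tumours of the lumen, and 6 members were called beside 24.5% of all genes (12.5% higher and 11.9% lower), 5 higher and 1 lower in #v. The study chose this pair for the highest and lowest score of its in vivo AKP expression signature, taken from the same RNA data. With 1 line on each side, crypt and lumen origin cannot be told apart from other differences between the 2 lines. Gata6 was higher by 1.39 on the log2 scale (SE 0.28, edgeR adjusted p = 0.000852) and Pax2 by 3.15 (SE 0.52, edgeR adjusted p = 0.000109). Cdx1 was at least 6.40-fold higher, with 36 counts against 0 (edgeR adjusted p = 0.00601). Cdx2 was higher by 0.87 (SE 0.29, edgeR adjusted p = 0.0278) and Tbx3 by 1.04 (SE 0.32, edgeR adjusted p = 0.0195). Gata4 was lower, with 1 count against 7 (ratio 13.1, 95% exact counting interval 1.69 to 591, edgeR adjusted p = 0.0323).

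All #v libraries carry F and all #i libraries E, so letter and line cannot be separated between them. A letter term takes 1 difference between F and E for all lines. For Gata6 that difference was 0.17 in control, −0.40 in organoid AKP and 1.24 in in vivo AKP on the log2 scale. The term therefore does not free this comparison of the letter, and its results are a description. With the letter as a term, estimated from the lines that hold both, Gata6 was higher by 1.04 (edgeR adjusted p = 0.0306) and Pax2 by 2.04 (edgeR adjusted p = 0.0175). Cdx1 was past the threshold (edgeR adjusted p = 0.037). Cdx2, at 0.50 (edgeR adjusted p = 0.373), Tbx3, at 0.36 (edgeR adjusted p = 0.49), and Gata4 (edgeR adjusted p = 0.109) did not pass with this term. Without the term, single libraries decided the calls of these 3. Cdx2 was lost without #i replicate 1 or 3 or #v replicate 2 (edgeR adjusted p from 0.0616 to 0.0908), Tbx3 without #i replicate 2 or #v replicate 1 (edgeR adjusted p = 0.0522 and 0.0556), and Gata4 without #i replicate 1 or 2 or #v replicate 2 or 3 (edgeR adjusted p from 0.0583 to 0.314).

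Between #iii and #i, both E, 0 of the 8 members were called by edgeR in the fit of all 8 lines, beside 2.23% of genes. There 0 had an unadjusted p under 0.05, and DESeq2 and limma-voom called 0. With only #iii and #i in the fit, edgeR called Cdx2, lower in #iii (log2 difference −0.40, edgeR adjusted p = 0.0157). The Cdx2 levels of these lines did not overlap. Between #v and #iv, both F, the fit of all 8 lines called only Pax2, beside 3.15% of genes. Pax2 was lower in #v by −1.69 on the log2 scale (SE 0.35, edgeR adjusted p = 0.00655). Cdx1 stood higher in #v than in #iv by 3.16 (edgeR adjusted p = 0.0835), and passed without #ii replicate 2, the library with its 6 counts (edgeR adjusted p = 0.0375). With the F libraries alone, Cdx1 (3.22, edgeR adjusted p = 0.00436) and Cdx2 (0.56, edgeR adjusted p = 0.00148) were higher in #v. With only #v and #iv in the fit, Cdx2 (0.55, edgeR adjusted p = 5.35e-06) and Gata6 (0.24, edgeR adjusted p = 0.0438) were higher in #v. Over the 5 mini-colon lines together, edgeR's F test called 6 members (Cdx1, Cdx2, Gata4, Gata6, Pax2 and Tbx3, beside 46.7% of genes) and not Sox2 (adjusted p = 0.308) or Pdx1 (adjusted p = 0.198). Over all 8 lines it called all 8 members, beside 88.7% of genes. Of these, Pdx1, Sox2 and Gata4 had to differ, since they passed the filter only through in vivo AKP.

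Ranked by mean level, the lines formed few separate steps. Of 56 pairs of neighbours in the 8 orders, edgeR called 8. Cdx2 ran from control through #v, in vivo AKP, #iv, organoid AKP, #ii and #i to #iii, and the single step past the threshold was from control to #v (1.91 on the log2 scale, edgeR adjusted p = 1.8e-07). Cdx1 had its 1 step at the same place. Gata6 ran from control through #v, #iv, in vivo AKP, #ii, organoid AKP and #iii to #i, and none of its 7 steps passed the edgeR threshold although 13 of its 28 pairs of lines were called. Tbx3 ran from in vivo AKP through control, #v, #iv, organoid AKP, #ii and #iii to #i, and its step was from in vivo AKP to control.

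Pdx1, Gata4 and Sox2 each had 1 step, below in vivo AKP. These genes passed the filter only through in vivo AKP, so a step there was built in. Their steps are among the 8 called and support nothing about the members as a group. Pdx1 in in vivo AKP stood above #iv, the next line, by 3.53 (edgeR adjusted p = 1.2e-06), and Gata4 stood above #i by 4.64 (edgeR adjusted p = 3.84e-09). Sox2 was above #v with 57 counts against 3 (ratio 11.7, 95% exact counting interval 3.79 to 58.2, edgeR adjusted p = 0.00466). Pax2 had 2 steps, from #iv to #v and from in vivo AKP to #iii (1.68, edgeR adjusted p = 0.00368), the latter between lines whose libraries overlap. Over all pairs of lines, Pax2 was called in 23 of 28, Tbx3 in 15, Cdx1 in 12, Cdx2 and Gata4 in 11, Pdx1 in 8 and Sox2 in 7. Of all genes, edgeR called 67.4%, 68.9%, 68.1%, 62.9% and 65.9% between control and #i to #v in turn, and 39.3%, 45.1%, 38.7%, 27.1% and 27.4% between in vivo AKP and #i to #v. Among the mini-colon lines it called 4.32% between #i and #ii, 11.2% between #ii and #iii, 18.9%, 25.3% and 21.4% between #iv and #i to #iii, and 29.9% and 24.0% between #v and #ii and #iii. The members' counts stand against shares that differ this widely.

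Over the 33 libraries the log2 levels of some members moved together, which is described without a test because the points share lines and letters. Pearson's r was 0.87 for Cdx1 and Cdx2, 0.75 for Cdx2 and Gata6 and 0.71 for Cdx1 and Gata6. It was 0.91 for Sox2 and Gata4, and 0.88 both for Pdx1 with Gata4 and for Pdx1 with Sox2. These genes were near 0 outside in vivo AKP and passed the filter only through it, so their r values mostly restate that line. Sox2 and Tbx3 had r of 0.85, whereas the GATA factors Gata4 and Gata6 had r of −0.25.

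The genes with the pattern most like each member were taken by the same r over 33 libraries. They were H2bc4 (0.97), Arpc5 (0.96) and Ifngr2 (0.96) for Cdx2, and Entrep1, Trim31 and Upk1b for Cdx1 (0.93 each). For Pdx1 they included Ppp1r36dn (0.95) and Kcnq1ot1 (0.94), and for Gata4 Mmp14 (0.97) and Ppp1r36dn (0.96), so that Ppp1r36dn stood in both lists. For Sox2 they were Sbspon (0.97), Ptprt (0.97) and Ppp2r2b (0.96), for Tbx3 H2-Q1 (0.97), Phf21a (0.93) and Grip1 (0.93). The r values were lower for Gata6, with Hspa8 (0.88), Med14 (0.87) and Cnnm2 (0.85), and for Pax2, with Macroh2a2 (0.88), Cd53 (0.84) and Tceal8 (0.82).

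Genes that overlap or adjoin a member were examined because the strand setting of the counting is not stated, so tags of a gene and of its antisense partner cannot be told apart. Plut, which overlaps Pdx1 on the other strand, rose with it in in vivo AKP, at 4.396 ± 0.780 CPM against 0.288 CPM in organoid AKP (SD, n = 6; log2 change 4.18, edgeR adjusted p = 8.78e-08). Tbx3os1, antisense to Tbx3, stood at 2.11 ± 0.936 CPM in in vivo AKP (log2 change 3.41, edgeR adjusted p = 2.6e-05). Gata6os was lower in organoid AKP than in control (log2 change −1.32, edgeR adjusted p = 0.00768), as Gata6 was. Sox2ot, which spans Sox2, held 4 counts over in vivo AKP. Near the 2 neighbours on chromosome 5, Gsx1 and Urad had 0 counts in organoid AKP and in vivo AKP.

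Genes that work with these factors, or that are controlled by them, were taken from 7 lists and counted in 3 comparisons, beside a median log2 change over all genes of 0.06, 0.00 and 0.03. The lists share some genes and were drawn up with earlier results of these data known, so their counts are a description. Each count is read beside the shares of all genes. These were 37.3% higher and 33.6% lower from control to organoid AKP, 34.4% called and 17.4% higher in in vivo AKP against organoid AKP, and 12.5% higher and 11.9% lower in #v against #i. Of 15 tested CDX target genes of intestinal epithelium, 15 fell and 0 rose from control to organoid AKP (median log2 change −7.05), beside 33.6% of all genes lower, although Sis, Mep1a and Fabp2 passed the filter only through control. Krt20, a keratin of mature colonocytes, was at 0.922 ± 0.425 against 645 ± 94.6 CPM, the microvillus protein gene Cdhr5 at 2.07 ± 1.79 against 336.5 ± 49.7 CPM, and Hnf4a, itself a factor of intestinal identity, at 2.15 ± 1.87 against 279.9 ± 73.1 CPM (SD, n = 6). Their log2 changes were −9.41, −7.58 and −7.22.

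In in vivo AKP against organoid AKP, 5 CDX targets rose and 1 fell (median 0.03), beside 17.4% of all genes higher, while Cdx2 itself was not called. Hnf4a rose by 2.66 and the guanylate cyclase receptor gene Gucy2c by 2.58 on the log2 scale, and Heph, a copper-dependent iron oxidase gene, fell by 1.77. Between #v and #i, 6 were higher in #v and 0 lower (median 0.50), beside 12.5% and 11.9% of all genes. Among them were Gucy2c, higher by 2.97, Krt20, by 2.78, and Isx, a homeobox gene of the intestine, by 1.02, with 71.9 ± 8.17 against 35.6 ± 0.438 CPM (SD, n = 3 each).

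Of 17 tested intestinal and hindgut identity factors other than the members, 13 fell and 3 rose from control to organoid AKP (median −1.55), beside 33.6% of all genes lower and 37.3% higher. Among the 17, Nr5a2 passed the filter only through control. Isx went from 281 ± 15.1 to 65.1 ± 9.60 CPM (log2 change −2.12), and Hnf4g, a relative of Hnf4a, from 67.9 ± 28.4 to 1.07 ± 0.824 CPM (log2 change −6.21). In in vivo AKP against organoid AKP, 6 rose and 2 fell (median 0.62, 17.4% of all genes higher), with Foxa3 at 82.0 ± 25.6 against 12.5 ± 4.32 CPM and Onecut2 at 8.93 ± 1.94 against 1.23 ± 0.571 CPM. Against #i, 8 rose and 1 fell in #v (median 1.02, 12.5% of all genes higher), among them Foxa3 by 1.87 and Foxa1 by 1.15.

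Of 11 tested factors of foregut, stomach, lung and pancreas, out of 24 listed, 6 rose and 2 fell in in vivo AKP against organoid AKP (median 1.87), beside 17.4% of all genes higher. Of these 11, Pitx1, Nkx6-1 and Mnx1 passed the filter only through in vivo AKP. Sox17, the SRY-box factor of early endoderm, was at 90.4 ± 23.1 against 0.450 ± 0.413 CPM (log2 change 7.54, edgeR adjusted p = 1.79e-20), and Sox21, a relative of Sox2, at 208 ± 26.3 against 57.0 ± 4.85 CPM (log2 change 1.87). Pax9, a paired box factor of foregut and pharynx, fell from 29.7 ± 5.63 to 2.93 ± 0.807 CPM (log2 change −3.34). From control to organoid AKP 5 rose and 3 fell (median 0.28), among them Ascl2, here listed with these factors but best known from intestinal stem cells, at 49.9 ± 9.21 against 0.508 ± 0.400 CPM. Foxq1, a forkhead factor of the stomach, fell by 1.0 on the log2 scale, and Pax8 was at least 104-fold lower, with 0 counts against 302. Pax8 passed the filter only through control, so it had to be lower here. In #v against #i 2 rose and 1 fell (median 0.00), with Ascl2 higher by 1.55, Sox21 by 0.80 and Pax6 lower on 3 counts against 30 (ratio 18.8, 95% exact counting interval 5.83 to 96.0).

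Of the 15 closest relatives of the members, 6 could be tested, and 4 of these rose in in vivo AKP against organoid AKP and 0 fell (median 2.29), beside 17.4% of all genes higher. Tbx2 and Gata2 passed the filter only through in vivo AKP, so this count supports nothing about the relatives as a group. Gata5, another GATA factor of the gut, had 168 counts against 0, at least 53.0-fold higher, and Pax8 had 13 against 0, at least 4.10-fold higher. Sox21 and the T-box gene Tbx2 were the others, the latter at 1.19 ± 0.483 against 0.159 ± 0.137 CPM. Gata3 and Gata2 were not called, with log2 changes of −0.62 and 2.54. From control to organoid AKP 1 rose and 3 fell (median −0.21), with Gata5 at 17 counts in control and 0 in organoid AKP, at least 5.83-fold lower. Pax8 passed the filter only through control, so it had to be lower in organoid AKP. Against #i, 1 rose and 0 fell in #v (median 0.40).

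**Figure D5:**
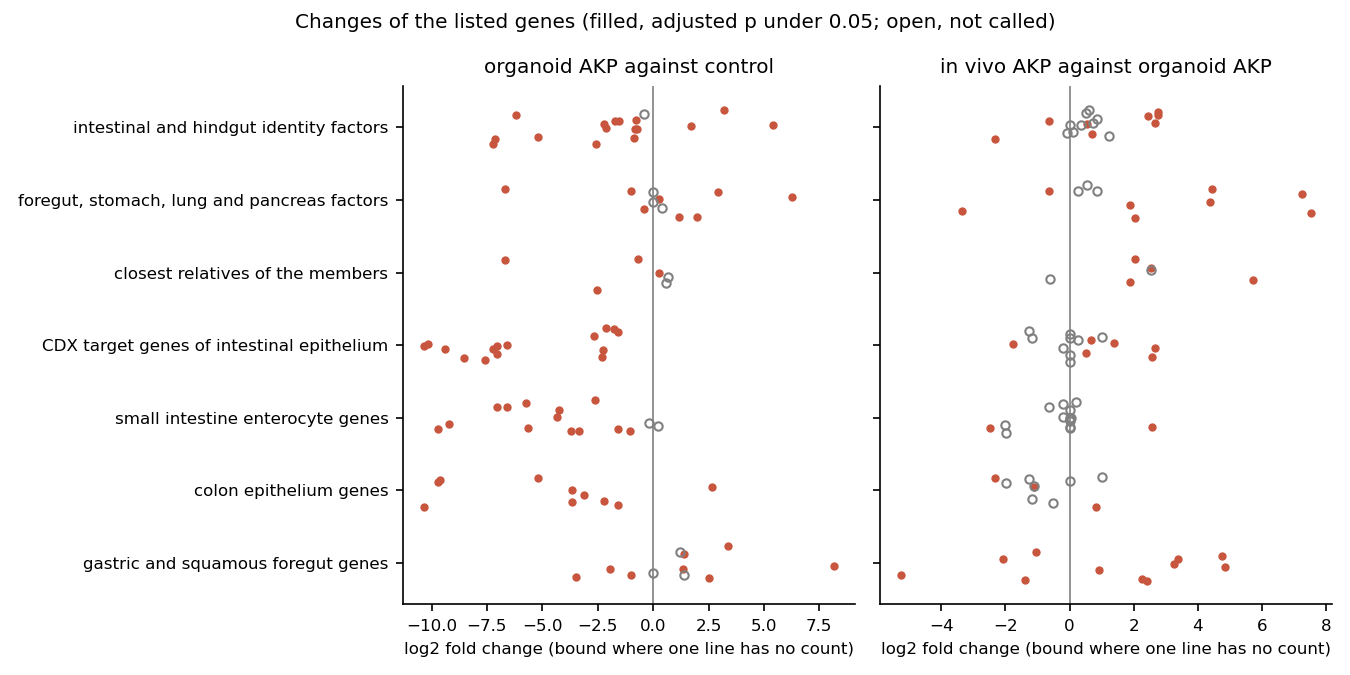
Log2 change of each tested gene of 7 lists in organoid AKP against control and in in vivo AKP against organoid AKP, 1 point per gene, with genes at 0 counts in a line drawn at their bound. CDX targets lie below 0 in the first comparison (median −7.05) and around 0 in the second (median 0.03), whereas foregut and related factors have a median of 1.87 in the second. Of these factors 11 of 24 listed were tested, and Pitx1, Nkx6-1 and Mnx1 passed the filter only through in vivo AKP. Among the CDX targets, Sis, Mep1a and Fabp2 passed it only through control.

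The gene programmes of the regions were counted as well. Of 15 tested small intestine enterocyte genes, 13 fell and 0 rose from control to organoid AKP (median −4.26), beside 33.6% of all genes lower. Since 10 of the 15 passed the filter only through control, these had to be lower, among them the alkaline phosphatase gene Alpi at 0.208 ± 0.272 against 198 ± 29.8 CPM and the glucose carrier gene Slc5a1 at 0.409 ± 0.343 against 17.8 ± 3.35 CPM. Slc10a2, the bile acid carrier of the ileum, had 0 counts against 1714, at least 588-fold lower. In in vivo AKP against organoid AKP 1 rose and 1 fell (median 0.00, 34.4% of all genes called), Anpep by 2.57 and Mgam by −2.47. In #v against #i 2 rose and 2 fell (median 0.00, 24.5% of all genes called). Anpep, with 39 counts against 2 (ratio 10.4, 95% exact counting interval 2.69 to 88.9), and Slc5a1, with 19 against 1 (ratio 10.1, interval 1.61 to 421), were higher, and Mgam was lower by −1.13.

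Of 10 tested colon epithelium genes, 9 fell and 1 rose from control to organoid AKP (median −3.67), beside 33.6% of all genes lower and 37.3% higher, although Aqp8, Slc26a3, Hsd11b2 and Cyp2c55 passed the filter only through control. The sulphate carrier gene Slc26a2 went from 584 ± 84.9 to 46.4 ± 10.98 CPM, Cyp2c55 from 289.7 ± 24.3 to 0.309 ± 0.424 CPM, and the chloride carrier gene Slc26a3 from 1251 counts to 1 (ratio 1288.0, 95% exact counting interval 231 to 50914.7). In in vivo AKP against organoid AKP 1 rose and 2 fell (median −1.11, 34.4% of all genes called). Slc26a2 rose by 0.82, and the sodium channel gene Scnn1a was among those that fell, by 1.12. Line #v against #i showed 0 that rose and 1 that fell, Slc26a2 by 0.94 (median 0.00, 24.5% of all genes called).

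Of 11 tested genes of gastric and squamous epithelium, out of 21 listed, 7 rose and 4 fell in in vivo AKP against organoid AKP (median 2.27), beside 34.4% of all genes called and 17.4% higher. Of these 11, Tff1, Cldn18 and Ctse passed the filter only through in vivo AKP. Atp4a, a subunit of the gastric proton pump, was at 6.74 ± 1.63 against 0.557 ± 0.358 CPM (log2 change 3.37). Krt14, a keratin of basal squamous cells, fell from 176 ± 54.2 to 4.58 ± 2.25 CPM (log2 change −5.26), and Krt4, a keratin of inner squamous layers, fell from 489 ± 57.1 to 187 ± 89.1 CPM. From control to organoid AKP 5 rose and 3 fell (median 1.37). Aqp5, a water channel gene of gastric glands and salivary glands, had 897 counts against 0, at least 290-fold higher, and Krt14 rose from 17.1 ± 4.41 CPM by 3.37 on the log2 scale, while Krt13 fell from 9.99 ± 3.68 to 2.51 ± 0.714 CPM. In #v against #i 2 rose and 3 fell (median 0.00), with Gkn3 at 22 counts against 0, at least 3.91-fold higher, and Krt14 and Aqp5 lower by −1.39 and −1.16.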

How the data were processed

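RNA of 33 libraries of 8 mouse lines was sequenced as 3′ tags. The authors deposited counts per Ensembl gene, 1 file per library, made after mapping with STAR to GRCm39; their notes name R 4.1.2, edgeR and limma. The counting tool, annotation and strand setting are not given in the sources used here. Each file held 32285 identifiers. Of these, 611 carry no gene name and took 6.85% of counts, 6.77% in 1 identifier.

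Libraries were grouped by the labels. Among 60 pairs of libraries of 1 line, chi-square per degree of freedom was 1.7 to 50, so none was counted as a duplicate. The 13606 genes that reached 1 CPM in 3 or more libraries entered edgeR's quasi-likelihood test (edgeR 4.0.16, R 4.3.3, robust fit, TMM scaling) over the 8 lines, with Benjamini-Hochberg adjustment over all genes and a threshold of 0.05. A separate fit of the 18 libraries of control, organoid AKP and in vivo AKP (13310 genes) held line, letter and their interaction. Correlations used log2 CPM with a prior count of 2. Against 0 counts, a fold is a bound at 3 counts over the line, and against 1 to 3 counts it is a ratio with a 95% exact (Clopper-Pearson) interval. Intervals and floors cover counting error only. The scripts were tested on simulated counts.

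The 8 members and the gene lists were chosen with earlier results of these data known. Named were the members, the 3 genes most correlated with each, up to 3 called genes of smallest p per list and comparison, and genes that overlap or adjoin a member. List genes named beyond these (Tbx2, Gata2, Gata3 and those said to pass the filter through 1 line) were chosen after their values were seen. Some items that this rule names are not reported here. Alternatives were DESeq2 1.42.0, limma-voom (limma 3.58.1), other scalings, filters and samples, a replicate block, the letter as a term or 1 letter alone, and leaving out each library.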

Additional observations from a re-analysis of the deposited data

Results flagged for a closer look

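In 2 of the 20 groups of 6 libraries examined, 1 library stood apart from the others, where chance flags about 5% of groups. They were Gata4 in organoid AKP replicate 2, at 0.325 CPM, and Pax2 in organoid AKP replicate 6, at 0.173 CPM. Each value is a single count in a line whose other libraries held 0, and these 2 counts are the base of the Gata4 and Pax2 ratios against organoid AKP.

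The change from organoid AKP to in vivo AKP differed between the letters E and F by 1.47 on the log2 scale for Cdx2, by 1.65 for Gata6 and by 0.92 for Tbx3, each with a larger value in F. The change from control to organoid AKP differed by 0.59 for Tbx3 and by −0.57 for Gata6. These differences were tested as interaction terms in edgeR. Summed fibroblast and smooth muscle markers, mostly Vim, were 203 to 276 CPM in the F libraries of in vivo AKP and 38.6 to 42.7 CPM in the E libraries. Their part in the differences was not tested.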

How the results depend on the processing

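The count of members called was within 1.5 times its main value in 575 of the recomputed counts and moved in 44. For #i against organoid AKP it went from 2 to 1 with limma-voom, the replicate block or the letter as a term, and to 0 with only the lines compared, where Gata4 and Pax2 missed the filter. For #ii it went from 0 to 1 with DESeq2, and for #iii from 2 to 1 with limma-voom, no filter, the block or the letter term. For #iv it went from 2 to 1 with no filter or the letter term, where Gata6 was lost, and for #v from 3 to 5 with the block or letter F only. For #v against #i it went from 6 to 3 with the letter term, for #iii against #i from 0 to 1 with only the lines compared, and for #v against #iv from 1 to 2 with limma-voom or the letter term and to 3 with letter F only or only the lines compared. The F test over the mini-colon lines went from 6 to 2 with the letter term. The calls lost in #i and #iii with limma-voom, the block or the letter term were those of Gata4, on 6 or 7 counts. The log2 changes of Cdx2 and Gata6 in in vivo AKP against organoid AKP reversed with letter E only, to −0.74 and −0.69. Beyond the changes shown by a setting's own construction, the cause was not tested.

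Leaving out each library in turn gave 4 to 5 members called for organoid AKP against control, 5 in every case for in vivo AKP against organoid AKP, 0 to 2 for #i, 0 to 1 for #ii, 1 to 3 for #iii, 1 to 2 for #iv and 3 in every case for #v. It gave 4 to 6 for #v against #i, 0 for #iii against #i, 1 to 2 for #v against #iv, 8 for the F test over 8 lines and 5 to 6 over the mini-colon lines, 7 to 11 of the neighbouring pairs, and 3 and 1 to 2 for the differences between letters. Of single member values, 3414 kept direction and side of the threshold, 46 lost the threshold, 27 gained it and 2 reversed.

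Replicate numbers did not pair the libraries. Over 93 pairs of equal number in different lines, deviations from the line means had a median r of 0.01 (−0.13 to 0.38), with 16 above 0.1. The replicate block changed the counts as given above for #i, #iii and #v, and in #iv it added a call of Tbx3 (0.80, edgeR adjusted p = 0.0135), from 2 to 3 members. Depth limits Sox2, Gata4, Pdx1 and Cdx1 in lines with 0 to 7 counts.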
